A study of Mus musculus with 4 samples.

Results

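The genes of the hypoxia-inducible factor (HIF) pathway were examined for H3K27ac, the acetylation of histone H3 at lysine 27, in mouse liver sinusoidal endothelial cells (LSECs). The pathway was represented by 9 genes of the 21887 protein-coding genes with a position in the gene table. These were the subunits *Hif1a*, *Epas1*, and *Arnt*, the hydroxylases *Egln1*, *Egln2*, *Egln3*, and *Hif1an*, the ubiquitin ligase component *Vhl*, and the target gene *Vegfa*. They were chosen for their place in the pathway and not by a measured value, but earlier results of these data were known when the choice was made. For each gene, all peaks in the gene body and 10 kb on either side were read from the peak list of each library and divided into gene-end peaks, within 1 kb of either end of the gene, and distal peaks. Peaks of both libraries that overlapped by at least 1 bp were merged into a shared region.

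H3K27ac ChIP-Seq was available for 2 libraries of isolated mouse LSECs, replicates 2 and 3, and each had an input library of the same number that was not analysed here on its own. The libraries form 1 condition, so no groups were compared and no test was run. The paper isolated LSECs with anti-CD146 beads and a short culture from *Col4a1* fl/wt mice, from the same with *Cdh5* CreERT2, and from dCas9-KRAB *Cdh5* CreERT2 mice, and its study used both sexes. Which genotype, strain, sex, age, or treatment applies to these libraries, and whether the replicates came from separate animals, is not given in the sources used here. The sample records describe sonicated chromatin and a ligation kit, whereas the paper describes tagmentation-assisted fragmentation.

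In cells with enough oxygen, prolyl hydroxylases modify the HIF alpha subunits, the von Hippel-Lindau protein recognises the modified subunit, and the subunit is ubiquitinated and degraded. An asparagine hydroxylase, called factor inhibiting HIF, separately blocks the contact of the alpha subunit with coactivators. When oxygen falls, the alpha subunit persists, pairs with the beta subunit ARNT, and binds a short DNA element, the hypoxia response element, near genes for angiogenesis, glycolysis, and erythropoiesis. LSECs line the liver sinusoids, along which oxygen falls from the portal to the central side. H3K27ac marks active promoters and active enhancers, and it is a measure of chromatin and not of transcript or protein.

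Replicate 2 held 26975 peaks and replicate 3 held 64498. Of the replicate 2 peaks, 99.2% overlapped a replicate 3 peak, whereas 37.7% of the replicate 3 peaks overlapped a replicate 2 peak. Each peak carries a fold enrichment, the ratio of signal to background given by the authors' peak caller, and in the 24199 shared regions replicate 3 had a median of 27 against 10.5 in replicate 2. Fold values are therefore given per library, with their percentile in that library's own list. The lists hold no read counts, so the depth is unknown. Genes of an LSEC marker list had a shared gene-end region in 7 of 10 cases and a shared region somewhere in the gene window in 10 of 10, where all protein-coding genes had shares of 44.1% and 58.5%. Among hepatocyte markers the gene-end count was 1 of 8, at *Apoa2*, whose region also lies within 1 kb of *Tomm40l*. It was 0 of 6 for hepatic stellate cell markers and 0 of 6 for Kupffer cell markers (Wilson 95% upper limit 39.0% in each). The window counts were 2 of 8 for hepatocyte, 0 of 6 for stellate cell, and 1 of 6 for Kupffer cell markers. In bulk chromatin a mark on more cells and a stronger mark per cell cannot be told apart.

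All 9 pathway genes had a shared region in their window, against 58.5% of all protein-coding genes. At a gene end, 8 of 9 had a peak in replicate 2 (background 43.4%), 8 of 9 had one in replicate 3 (background 53.9%), and 8 of 9 had a shared region (background 44.1%, 9644 genes). The shared background is slightly above that of replicate 2 because a shared region includes the wider replicate 3 peak. The exception was *Hif1a*, whose peak sits over a transcription start inside the annotated gene body. Distal peaks were present at 7 of 9 genes in replicate 2 (background 40.1%), at 9 of 9 in replicate 3 (background 60.6%), and in shared form at 7 of 9 (background 39.3%), counting the *Hif1a* start region. Without regions at an end of another gene the shared count was 6 of 9, because the only distal *Vhl* region lies at an end of *Irak2*. No background share was computed for that setting. *Arnt* and *Egln1* had no shared distal region. These counts are descriptions of 9 genes, and long genes have more room for distal peaks. When each peak had to cover at least 50% of the other to be shared, 5 of 9 genes had a shared gene-end region and 4 of 9 a shared distal region, against 22.4% and 25.2% of all genes.

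The windows held 26 peaks of replicate 2 and 52 of replicate 3, which formed 25 shared regions. Of these, 8 were gene-end regions and 17 were distal, 14 in gene bodies and 3 in flanks. No peak was found in replicate 2 alone, where 99.2% of all replicate 2 peaks overlapped a replicate 3 peak. The 3 subunit genes held 10 shared regions, the 4 hydroxylase genes 11, and *Vhl* and *Vegfa* 2 each. The median over all genes was 1 region, so *Epas1*, with 8, and *Egln3*, with 5, lay far above it, with fewer shared regions in 98.8% and 95.5% of genes. Counted per 10 kb of window, the shares of genes with a lower density were 91.0% for *Epas1* and 96.4% for *Egln3*. *Hif1a*, *Arnt*, and *Egln1* had 1 region each.

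**Figure D1:**
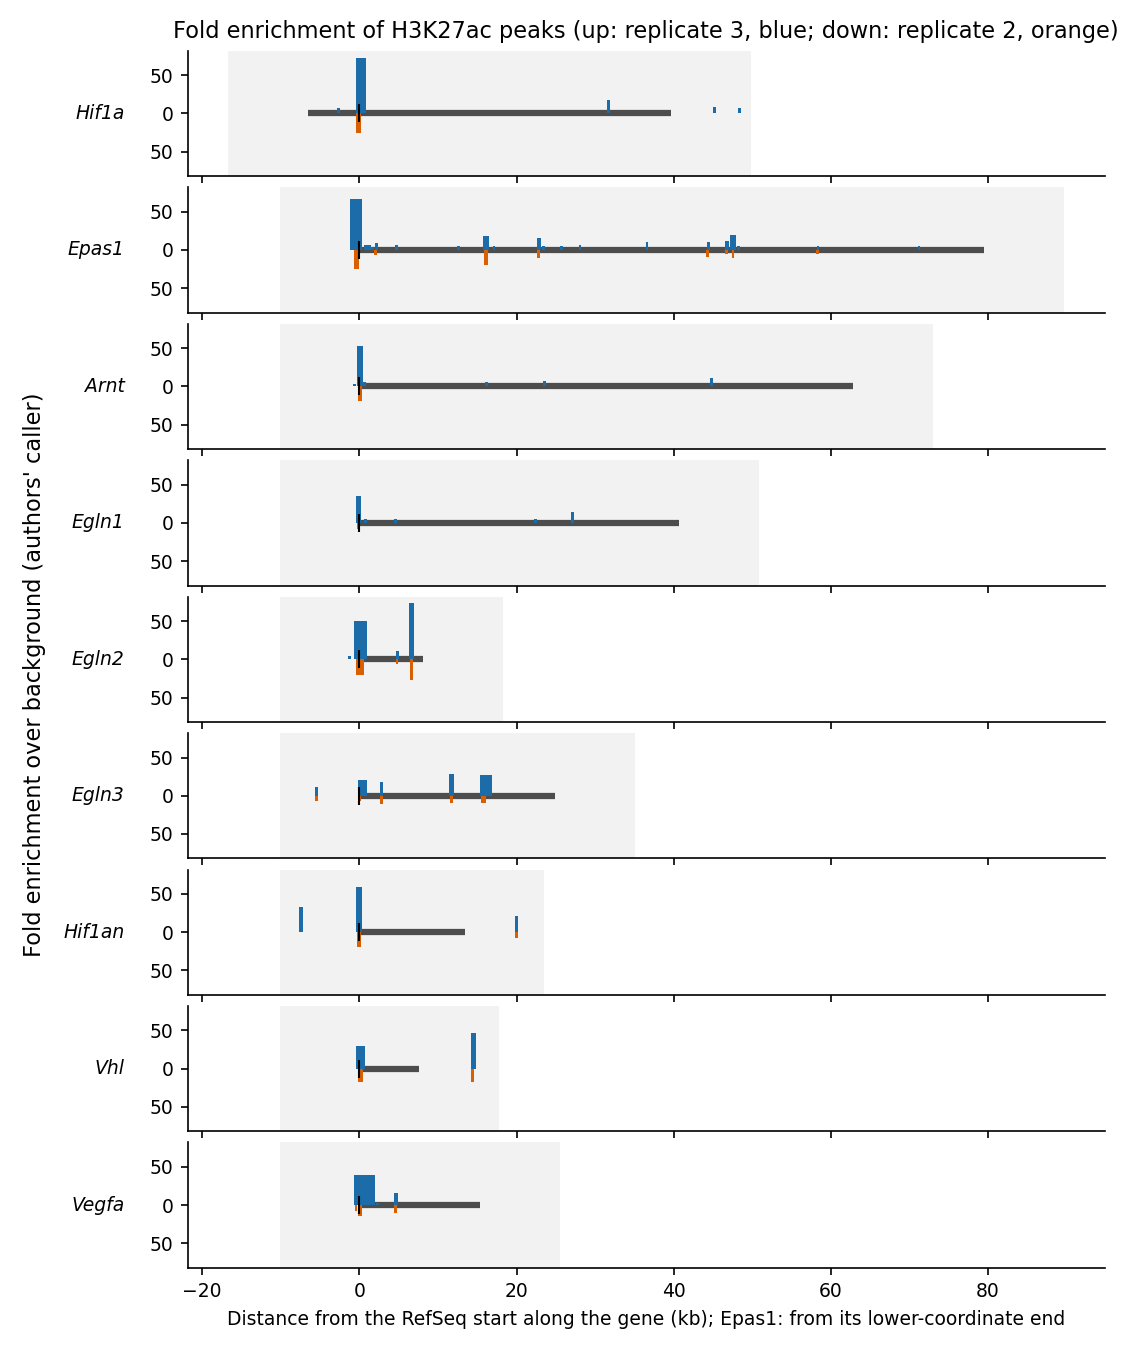
Peaks of replicates 2 and 3 in the window of each of the 9 genes, with distance along the gene (kb) on the horizontal axis and fold enrichment by the authors' caller on the vertical axis, upward in blue for replicate 3 and downward in orange for replicate 2, the gene body as a dark bar, and the window shaded. *Epas1* carries 7 shared regions along its gene body, whereas *Arnt* and *Egln1* carry a single shared region at the start and further peaks in replicate 3 alone.

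The shared regions at the starts were first placed against the sequence. RefSeq start windows, 250 bases before to 50 after a start, were available for 8 of the 9 genes, with 10 starts in all, and *Epas1* had no entry. A peak lay over such a window in 43.3% of 17492 genes in replicate 2, in 52.0% in replicate 3, and in shared form in 44.5%. All 8 pathway genes had a shared region over at least 1 start window. The 250 bases upstream of 5 starts are shown because they span the range of core elements among the pathway genes, from 0 at *Vegfa* to 4 at *Egln2*. They are printed 5′ to 3′ on the strand of the gene from the RefSeq table of GRCm38.p6, and capitals mark the core of the hypoxia response element, ACGTG or GCGTG, or its reverse complement CACGT or CACGC.
Hif1a, chr12:73907617-73907866, plus strand: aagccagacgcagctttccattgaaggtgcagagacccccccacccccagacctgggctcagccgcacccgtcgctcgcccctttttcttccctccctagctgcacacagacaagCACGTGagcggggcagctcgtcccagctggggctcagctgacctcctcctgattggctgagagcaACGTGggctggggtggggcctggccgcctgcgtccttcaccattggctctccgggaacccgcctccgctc
Egln1, chr8:124949255-124949504, minus strand: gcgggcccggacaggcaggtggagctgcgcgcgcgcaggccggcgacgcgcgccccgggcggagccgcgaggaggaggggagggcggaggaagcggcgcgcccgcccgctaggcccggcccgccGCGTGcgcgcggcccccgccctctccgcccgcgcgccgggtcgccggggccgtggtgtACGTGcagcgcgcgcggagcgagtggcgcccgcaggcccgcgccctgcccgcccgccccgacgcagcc
Egln2, chr7:27166803-27167052, minus strand: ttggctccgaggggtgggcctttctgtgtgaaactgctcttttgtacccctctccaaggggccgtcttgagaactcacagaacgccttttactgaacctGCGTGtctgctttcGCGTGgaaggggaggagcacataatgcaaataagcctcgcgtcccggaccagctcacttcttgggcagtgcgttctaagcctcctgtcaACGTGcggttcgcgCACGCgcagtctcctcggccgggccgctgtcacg
Egln3, chr12:54203875-54204124, minus strand: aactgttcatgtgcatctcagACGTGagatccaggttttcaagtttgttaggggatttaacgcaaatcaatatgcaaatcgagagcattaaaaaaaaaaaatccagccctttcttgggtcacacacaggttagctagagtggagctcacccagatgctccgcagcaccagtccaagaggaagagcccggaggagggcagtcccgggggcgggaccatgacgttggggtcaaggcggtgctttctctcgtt
Vegfa, chr17:46032378-46032627, minus strand: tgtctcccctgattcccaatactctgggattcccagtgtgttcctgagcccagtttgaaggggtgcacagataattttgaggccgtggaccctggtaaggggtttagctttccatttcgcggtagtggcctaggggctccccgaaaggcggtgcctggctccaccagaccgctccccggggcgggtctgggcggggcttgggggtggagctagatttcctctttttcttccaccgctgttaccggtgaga

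The core was counted on both strands over the whole window of 300 bases, and the palindrome CACGTG counts as 2 because it holds a core on each strand. At least 1 core was present in 43.8% of 32851 start windows and at least 4 in 3.86%. *Egln2*, which encodes the prolyl hydroxylase PHD1, had 6, at positions -151, -137, -48, -34, -4, and -3 from the start. The last 2 form 1 palindrome that reaches the start itself and so lies only partly in the printed stretch. *Hif1a* had 3, of which 2 form a palindrome at -135, and *Egln1* had 2, at -126 and -68. *Arnt* had 1 at -29 and *Egln3* had 1 at -229, while the main windows of *Vhl*, *Hif1an*, and *Vegfa* held none. Every core in the *Hif1a*, *Arnt*, *Egln1*, and *Egln2* main windows lay inside a peak of both libraries. The *Egln3* core lay outside the peak of each library. A match of 5 letters is a description of the sequence and not a binding site, and the absence of a match applies to these letters in this window only.

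The start windows also differed in base composition. The *Egln1* window was 86% G and C and held 60 CpG dinucleotides, more than 99.9% of windows, against a median of 7. The other main windows held 16 to 29 CpG. The GC box GGGCGG, on either strand, was present in 35.7% of windows and appeared 9 times at *Egln1*, 7 times at *Vhl*, and 3 times at *Egln2*. Among the 8 genes with a window, *Vhl* alone held TATAAA on either strand, a match found in 13.6% of windows. The *Vhl* window held 1 match, which read TTTATA on the strand of the gene, so TATAAA lay on the opposite strand. Each of these windows was covered at least in part by a peak of both libraries.

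*Hif1a* (NCBI gene 15251, chr12:73901324-73947554) encodes the oxygen-regulated alpha subunit HIF-1α. It had 1 shared region, chr12:73907391-73908728, 1338 bp wide, whose fold enrichment was 25.1 in replicate 2 and 72.3 in replicate 3. These were the highest start values of the 9 genes in both libraries, at the 90.5th and 96.2nd percentile of all peaks of the respective lists. Among the 7791 genes with a shared region over a RefSeq start window, they stood lower, at the 74.8th and 74.0th percentile. The region spans the RefSeq start at 73907867, whose upstream sequence with 3 cores is printed above. That start lies 6543 bp inside the gene body, so the region counts as distal by the distance rule. The summit, the base of highest signal, was 2 bp from that start in each library. Replicate 3 had 4 further peaks, of which the highest, with a fold of 17.4, had its summit in the gene body 31765 bp downstream of the start.

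*Epas1* (NCBI gene 13819, chr17:86753864-86833410) encodes HIF-2α, the alpha subunit first described in endothelial cells. Its region at the lower-coordinate end of the gene, chr17:86752664-86754187, had a fold of 24.4 in replicate 2 and 67.0 in replicate 3, second to *Hif1a* in both. A further 7 shared regions, all in the gene body, made it the member with the most H3K27ac regions, at 0.804 per 10 kb of window against a median of 0.159 over all genes. The strongest in replicate 2 was chr17:86769558-86770387, with a fold of 19.7 in replicate 2 and 18.1 in replicate 3. It was the only 1 of the 25 shared regions with a lower fold in replicate 3, at a ratio of 0.921. Over all 24199 shared regions, replicate 3 had the higher fold in 97.1%.

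The strongest distal *Epas1* region in replicate 3 was chr17:86801056-86801846, 47.6 kb from the gene end, with a fold of 10.2 in replicate 2 and 18.9 in replicate 3. Its neighbour at chr17:86800361-86800943 had 5.41 and 11.4. The region chr17:86776501-86777029, 22.9 kb inside the gene, had 10.2 and 16.0. In both libraries all 3 lay well below the gene-end region. The remaining 3, at chr17:86755784-86756281, chr17:86798041-86798460, and chr17:86812055-86812412, ranged from 4.74 to 8.81 in replicate 2 and from 5.73 to 10.7 in replicate 3. Replicate 3 added 11 *Epas1* peaks of its own, with folds from 4.43 to 10.4, 1 of them at the gene end with 7.08.

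*Arnt* (NCBI gene 11863, chr3:95434367-95497240) encodes the beta subunit that pairs with either alpha subunit and is not itself regulated by oxygen through hydroxylation. Its only shared region, chr3:95434047-95434852, covered the start, with a fold of 19.5 in replicate 2 and 53.3 in replicate 3. Both gene-end peaks found in replicate 3 alone were weak, at 2.77 and 5.21. The 3 distal *Arnt* peaks, all in replicate 3 alone, had folds of 6.19, 7.16, and 11.1. *Arnt* and *Epas1* are of broadly like length, 62.9 and 79.5 kb, yet had 1 and 8 shared regions.

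*Egln1* (NCBI gene 112405, chr8:124908587-124949254) encodes PHD2, the main oxygen sensor among the prolyl hydroxylases. Its only shared region, chr8:124949027-124949710, had a fold of 8.13 in replicate 2 and 34.5 in replicate 3. The ratio of 4.24 was the highest of the 25 shared regions and exceeded 94.1% of the ratios over all shared regions. The *Egln1* summits lay at -174 and -176 bp from the start, within the stretch printed above and farther from the start than at any other gene with a start entry. In replicate 3 alone, *Egln1* had a gene-end peak of 5.54 and distal peaks of 5.31, 5.54, and 14.3.

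*Egln2* (NCBI gene 112406, chr7:27158658-27166802) encodes PHD1. At its main start, chr7:27165895-27167486, the fold was 20.3 in replicate 2 and 50.1 in replicate 3. This region also lies within 1 kb of an end of *Rab4b*, so its signal cannot be assigned to *Egln2* alone. A distal region in the gene body, chr7:27159793-27160549, was higher in both libraries, at 27.1 and 74.2, and was the strongest shared region of any pathway gene in each. It begins just over 1 kb from the lower-coordinate end of the gene, so with gene ends of 2.5 kb it would count as a gene-end region. A weaker distal region, chr7:27161818-27162146, had 6.78 and 11.0. At a second RefSeq start, 27165728, no replicate 2 peak covered the window and a replicate 3 peak covered 28% of it.

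*Egln3* (NCBI gene 112407, chr12:54178981-54203874) encodes PHD3, itself a HIF target gene in many cells. Its start region, chr12:54202934-54204061, had the lowest start values of the 9 genes, 7.32 in replicate 2 and 20.7 in replicate 3. It had 4 distal regions, which lay on either side of these values. In replicate 2 chr12:54187021-54188560, 1540 bp wide, had 9.76, chr12:54191814-54192415 had 10.1, and chr12:54200845-54201193 had 10.8. The same 3 regions had 27.7, 28.2, and 17.9 in replicate 3, so only the first pair exceeded the start region in both libraries. A flank region upstream of the start, chr12:54209112-54209543, was weaker in both libraries, at 6.78 and 11.5. *Egln3* had 1.11 shared regions per 10 kb of window, the highest density of the 9 genes, just above *Egln2* at 1.07.

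*Hif1an* (NCBI gene 319594, chr19:44562854-44576274) encodes factor inhibiting HIF, the asparagine hydroxylase. Its start region, chr19:44562478-44563219, had a fold of 19.7 in replicate 2 and 58.7 in replicate 3, the highest of the 4 hydroxylase genes in replicate 3. A flank region, chr19:44582656-44583035, had 7.39 and 21.3. A peak of 33.5 in replicate 3 alone, the strongest of the peaks without a partner, lay at an end of the neighbouring gene *Ndufb8*.

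*Vhl* (NCBI gene 22346, chr6:113623994-113631634) encodes the substrate receptor that binds hydroxylated HIF alpha subunits. Its start region, chr6:113623562-113624653, had a fold of 17.6 in replicate 2 and 29.7 in replicate 3, and its ratio of 1.69 was the lowest of the gene-end regions. *Vhl* accordingly ranked sixth of 9 by start value in replicate 2 and eighth in replicate 3. The only distal *Vhl* region, chr6:113638175-113638874, had 16.9 and 47.2 and lies at an end of *Irak2*.

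*Vegfa* (NCBI gene 22339, chr17:46016993-46032377) encodes the vascular endothelial growth factor that signals to endothelial cells. Its start region, chr17:46030373-46033091, reached 13.8 in replicate 2 and 39.5 in replicate 3. At 2719 bp it was wider than 99.2% of shared regions and extended 2004 bp downstream of the start. In replicate 2 it was made of 2 separate peaks, the second of them with a fold of 8.13. An additional gene-body region, chr17:46027418-46028030, had 9.82 and 16.1, and a replicate 3 peak of 3.01 lay between them. No peak covered the window of a second RefSeq start at 46025163, and the nearest peak was 2.51 kb away in replicate 2 and 2.26 kb away in replicate 3.

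**Figure D2:**
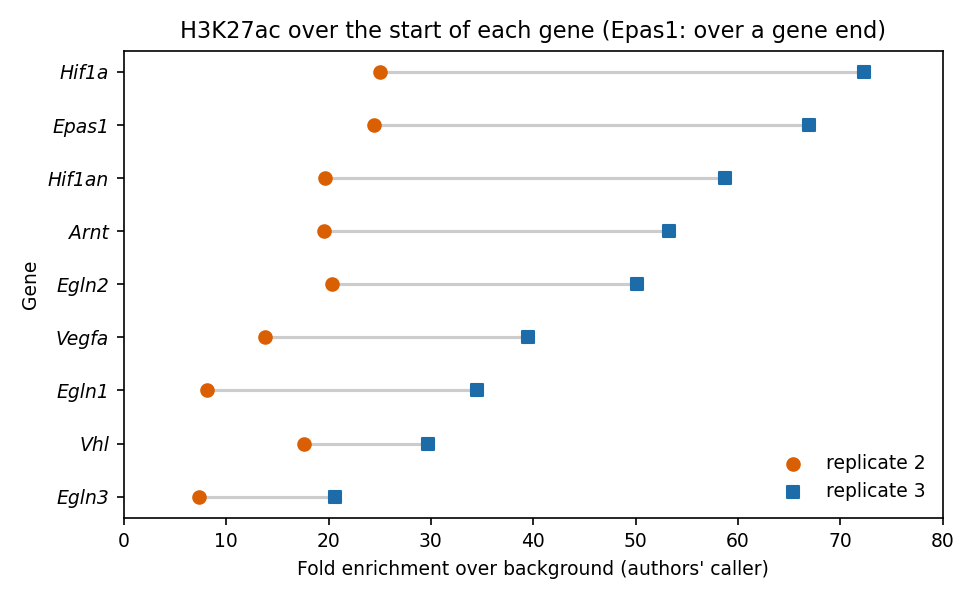
Fold enrichment by the authors' caller (horizontal axis) of the peak over the start of each gene, or over the lower-coordinate gene end for *Epas1*, with circles for replicate 2 and squares for replicate 3. *Hif1a* and *Epas1* are highest and *Egln3* is lowest in both libraries, and every replicate 3 value is above the replicate 2 value.

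The order of the 9 start values was much alike in both libraries (Spearman's rho 0.90 over 9 genes, given as a description). *Hif1a* and *Epas1* were first and second, and *Egln3* was last, in each. *Arnt*, *Egln2*, and *Hif1an* lay within 19.5 to 20.3 in replicate 2 and changed places in replicate 3, so their order cannot be told with 2 libraries. *Vhl*, *Egln1*, and *Vegfa* also changed places. The median start value was 19.5 in replicate 2 and 50.1 in replicate 3.

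For the 8 genes with a shared gene-end region, the fold was higher in replicate 3 in every case, as in 99.5% of the 9644 genes with such a region. The ratio of replicate 3 to replicate 2 had a median of 2.47 over the 25 regions and of 2.47 over all shared regions. Ranked among the 9644 genes, 5 of the 8 lay above the median in replicate 2 and 4 in replicate 3. *Epas1* stood at the 73.9th and 70.5th percentile, *Egln3* at the 9.50th and 12.9th, and *Egln1* at the 13.6th and 32.8th. The start values of the pathway genes therefore spread over much of the range of all genes. The highest shared distal fold exceeded the highest gene-end fold in each library at *Egln2* and *Egln3*, 2 of the 8, against 18.7% of the 9644 genes. The highest distal region could differ between the libraries in this count. At *Egln2* the region concerned would be a gene-end region with gene ends of 2.5 kb.

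**Figure D3:**
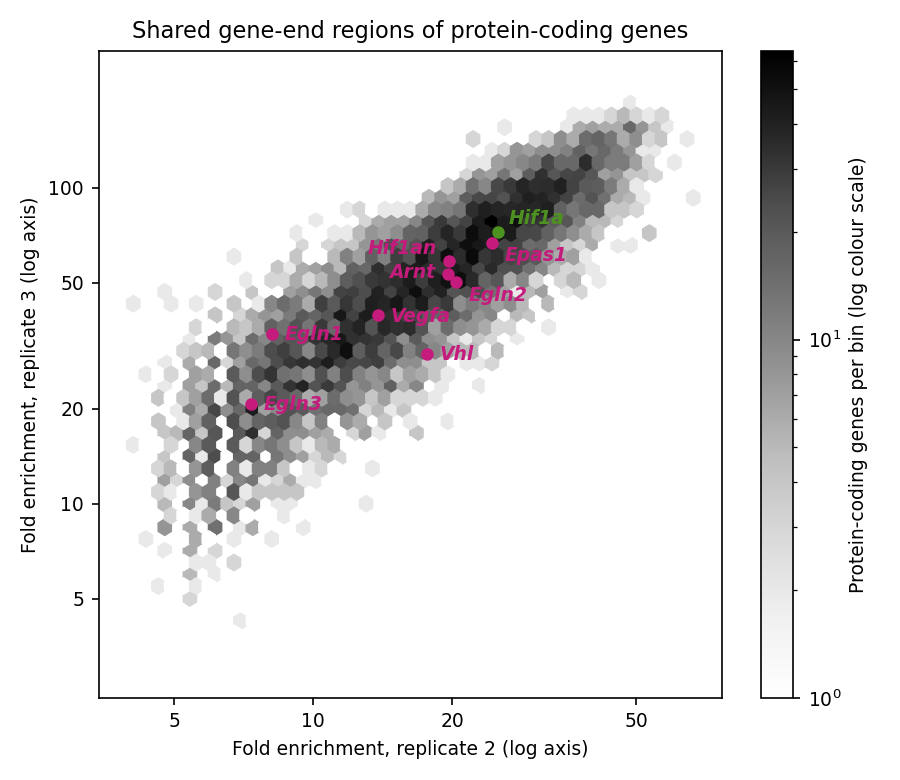
Highest fold enrichment of the shared gene-end region of each protein-coding gene in replicate 2 (horizontal) and replicate 3 (vertical), on log axes, with grey bins shaded by the number of genes, the 8 pathway genes with such a region in pink, and *Hif1a*, placed by its start region, in green. *Egln1* lies on the upper side and *Vhl* on the lower side of the cloud, with the highest and lowest ratio of replicate 3 to replicate 2 among the 8.

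Within 1 kb of the end opposite the start, none of the 8 pathway genes with a start entry had a peak in either library. The background was 5.29% of the 17492 genes with a start entry for shared regions and 11.0% for replicate 3 peaks. *Epas1* has no start entry, and its higher-coordinate end had no peak in either library. Of the 52 replicate 3 peaks in the windows, 27 had no partner in replicate 2. Over the whole list, 24294 of the 64498 replicate 3 peaks (37.7%) had a partner, so peaks without one were the larger part there too. The 27 in the windows comprised 4 gene-end and 23 distal peaks, and their folds ranged from 2.77 to 33.5 with a median of 5.54. The median percentile of these peaks was 24.0 in the replicate 3 list, and 5 of them, at *Hif1a*, *Epas1*, *Arnt*, *Egln1*, and *Hif1an*, lay above the middle of that list. Replicate 3 has more peaks across the genome, and the part of that excess in these 27 was not tested.

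Other genes of the pathway were then counted from lists of HIF degradation and cofactor genes, of HIF target genes, and of the VEGF family. Of 16 degradation and cofactor genes, 14 had a shared gene-end region (87.5%, Wilson 95% interval 64.0% to 96.5%, against 44.1% of all genes). The count was 8 of 16 with a reciprocal overlap of 50%, against 22.4% of all genes. The highest in replicate 3 was *Rbx1*, the ring finger protein of the VHL ligase, with 21.6 in replicate 2 and 85.9 in replicate 3. *Usp20*, a deubiquitinase, had 27.6 and 81.9, at a region that also lies at an end of *BC005624*, and the chaperone gene *Hsp90aa1* had 31.9 and 76.7. Those without a peak of either library at a gene end were *Hif3a* and *Arnt2*, the remaining alpha and beta subunit genes.

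Among 18 glycolysis target genes, 14 had a shared gene-end region (77.8%, interval 54.8% to 91.0%, against 44.1% of all genes). The highest in replicate 3 were *Pgam1*, a phosphoglycerate mutase, with 23.2 and 111, *Pdk1*, a kinase that restrains pyruvate entry into mitochondria, with 38.6 and 100.3, and the aldolase gene *Aldoa* with 29.1 and 97.4. At *Aldoa* no replicate 2 peak itself lay within 1 kb of a gene end, and the shared region reached it through replicate 3. *Hk1*, *Pfkfb4*, and *Ldha* had no gene-end peak in either library but, as at *Hif1a*, a shared region over a RefSeq start. The lactate exporter *Slc16a3* had a gene-end peak in replicate 3 alone.

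Among 24 other hypoxia target genes, 15 had a shared gene-end region (62.5%, interval 42.7% to 78.8%, which includes the 44.1% of all genes). Requiring a reciprocal overlap of 50% left 8 of 24, against 22.4% of all genes. The mitophagy receptor gene *Bnip3l* had 40.0 and 132, the mTOR inhibitor gene *Ddit4* had 46.7 and 122, and the histone demethylase gene *Kdm3a* had 29.1 and 110 in replicates 2 and 3. Gene-end peaks were absent in both libraries at 6 genes. These were *Lox*, *Loxl2*, *Plod2*, the carbonic anhydrase genes *Car9* and *Car12*, and *Epo*, the erythropoietin gene. *P4ha2*, *Mxi1*, and *Cxcr4* had them in replicate 3 alone.

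The 9 other VEGF family genes included 6 with a shared gene-end region (66.7%, interval 35.4% to 87.9%, against 44.1% of all genes), and receptor genes had the 3 highest values. With a reciprocal overlap of 50% the count was 1 of 9, against 22.4% of all genes, so the list went from above to below the background. *Kdr*, the VEGFR2 gene, had 22.4 and 60.3 at its strongest gene-end region, but 5.41 and 18.7 over its RefSeq start, below the other 2 receptors named here. *Flt4* had 12.2 and 46.5, and the coreceptor gene *Nrp2* had 16.9 and 44.9. *Kdr* held 12 shared regions in its window, *Nrp2* 11, and *Flt1* and *Nrp1* 8 each, against 2 at *Vegfa*. These counts are not adjusted for length. The genes span 46.2 kb at *Kdr*, 115 kb at *Nrp2*, 165 kb at *Flt1*, and 147 kb at *Nrp1*, against 15.4 kb at *Vegfa*. The ligand genes *Vegfd* and *Pgf* had no gene-end peak in either library, and *Vegfb* had one in replicate 3 alone. The intervals describe counting over few genes only, and those of the 3 smaller shares overlap one another widely.

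**Figure D4:**
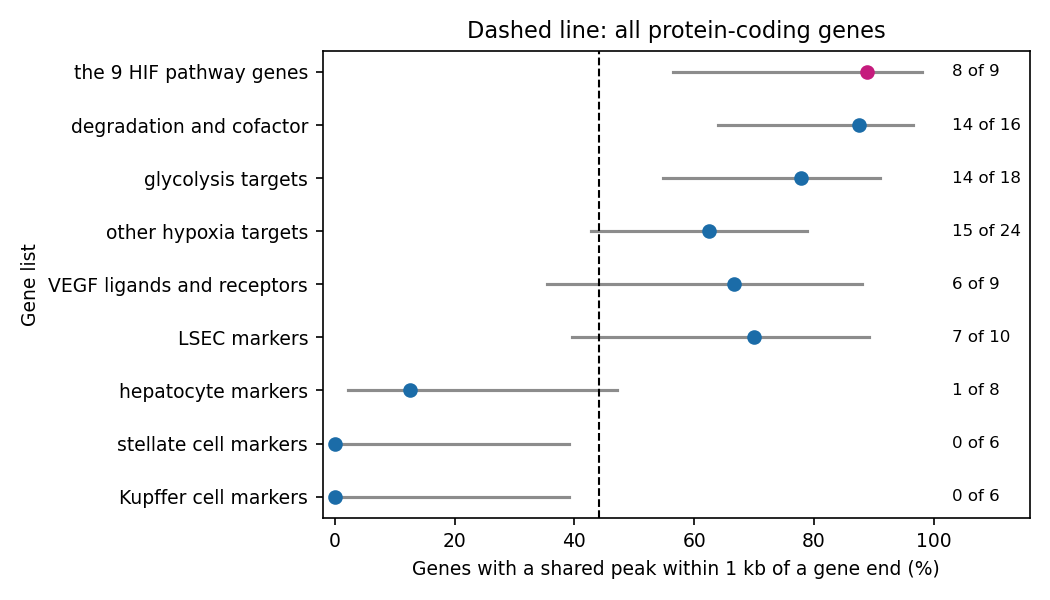
Percentage of genes of each list with a shared gene-end region (horizontal axis), with bars for the Wilson 95% interval and a line at the 44.1% of all protein-coding genes. The pathway genes and the degradation and cofactor genes lie at 88.9% and 87.5%, and the stellate cell and Kupffer cell markers lie at 0.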

How the data were processed

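ChIP-Seq of H3K27ac in LSECs isolated from mice gave 2 libraries, whose group and replicate number follow the sample titles. The authors deposited 1 peak list per library. The deposited fold enrichment is a ratio of signal to background from the authors' caller. The deposited −log10 p-value, −log10 q-value, and a score rescaled from the latter stand beside it, and of these the q-value served as a filter in 1 alternative. The submitters' processing notes name the build mm10 (GRCm38), cutadapt 0.4.4, BWA 0.7.17, Picard 1.67, MACS2 2.0.10, and bedtools 2.27.1, without roles. Whether the inputs entered peak calling is not given in the sources used here. The files carry no read counts, so the depth behind each value is unknown. A stronger or deeper library yields more and wider peaks, which changes every count.

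Peaks were assigned to protein-coding genes of the RefSeq table of GRCm38.p6, with windows of 10 kb around the gene body, gene ends of 1 kb, and an overlap of at least 1 bp. Exons and introns were not told apart. Python 3.11.15 with numpy 2.4.6, pandas 2.3.3, and scipy 1.17.1 was used, with matplotlib 3.10.9 for figures, and the scripts were tested on simulated data. Percentages of gene lists carry Wilson 95% intervals, which cover counting of genes only. Named were all 9 pathway genes with every gene-end peak and shared distal region (peaks of replicate 3 alone are also given), and, per further list, the 3 genes highest in replicate 3 and every gene without a gene-end peak. *Slc16a3*, *P4ha2*, *Mxi1*, *Cxcr4*, *Vegfb*, *Flt1*, *Nrp1*, and *Apoa2* were named after their values were seen. The members and lists were chosen with earlier results of these data known. The alternatives were a q-value of 1e-05, equal numbers of peaks, a reciprocal overlap of 50%, gene ends of 2.5 kb, other flanks, leaving out ends of other genes, and each library alone.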

Additional observations from a re-analysis of the deposited data

How the results depend on the processing

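Over 10 counts and shares recomputed under up to 9 alternatives, 45 of 68 values stayed within a set limit of the main one and 23 moved. For a count the limit was a 1.5-fold change. For a background share it was the Wilson 95% interval of the main share, which is narrow, so small changes of a share count as moved. With a reciprocal overlap of 50%, genes with a shared gene-end region went from 8 to 5 and those with a shared distal region from 7 to 4, with 5 gene-end and 6 distal regions left. The background shares went to 22.4% and 25.2%, the degradation and cofactor genes to 8, the other hypoxia targets to 8, and the VEGF family to 1 of 9, which lies below the background where the main count lay above it. *Hif1a* and *Vegfa* then had 0 shared regions and *Epas1* had 3. By construction this removes narrow replicate 2 peaks inside wide replicate 3 peaks.

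With each library alone, gene-end genes numbered 8 to 8, distal genes 7 to 9, gene-end regions 9 to 12, and distal regions 17 to 40, where the 40 came without replicate 2. The background shares ranged from 43.4% to 53.9% at gene ends and from 40.1% to 60.6% for distal peaks. The lists ranged from 14 to 14 for degradation and cofactors, 13 to 15 for glycolysis, 15 to 18 for other targets, and 5 to 7 for the VEGF family. Without replicate 2, *Epas1* had 19 peaks, *Arnt* 6, and *Egln1* 5. *Epas1* had 5 shared regions with equal numbers of peaks.

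The gene-end background was 42.9% at a q-value of 1e-05, 43.0% with equal numbers of peaks, and 47.7% with ends of 2.5 kb. The distal background was 37.4%, 37.0%, and 35.1% under the same settings, 19.4% with no flank, and 66.7% with 50 kb, at which the pathway genes had 29 distal regions. The change with flank follows from the length searched, while for the others the cause was not tested. As to the replicate numbers: No paired analysis was possible because both libraries form 1 condition and no result comes from a test. With 2 libraries of unknown depth, a peak missing from replicate 2 was not detected and cannot be called absent.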

Other observations

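Between 10 and 50 kb from the pathway genes, outside the windows of the report, *Hif1a*, *Vhl*, *Egln1*, *Egln2*, and *Egln3* had further shared regions, and the other 4 genes had none. *Egln3*, whose start had the lowest values, had 1 such region at chr12:54162512-54164055, 14.9 kb below the gene, with a fold of 22.9 in replicate 2 and 56.9 in replicate 3. Both values were above those of every shared region in the *Egln3* window, and the region was not at an end of another protein-coding gene. *Vhl* had 5, of which the strongest, chr6:113644009-113645529, had 27.5 and 67.6 and lay 12.4 kb above the gene. *Hif1a* had 2, of which 1 lay at an end of *Snapc1* with 8.54 and 55.7. All regions of *Egln1* and *Egln2* at this distance, 2 each, lay at ends of other genes. Which gene any of these regions acts on was not tested.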
